A study of Caenorhabditis elegans with 9 samples.

Results

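Transcripts recovered with HZL-1 from aak(0) and from daf-2 dauer larvae of Caenorhabditis elegans were compared across protein-coding genes. The members were the genes with the category protein-coding and with reads in at least 4 of the 6 HZL-1 libraries made with the intestinal promoter, which was true of 7382 of 19645 protein-coding genes and of 46904 genes in all. The aak(0) group held 3 libraries from animals that were daf-2 and aak(0), with mutant hzl-1 and the array Ex(nhx-2p::hzl-1::GFP). The daf-2 group held 3 libraries from animals that were daf-2, with mutant hzl-1 and the array of the same name. A further library, from daf-2 and aak(0) animals with the array Ex(nhx-2p::GFP) and no tagged HZL-1, is given beside some values as GFP alone. Its label names no hzl-1 mutation, so it differs from the aak(0) group in the hzl-1 gene as well as in the array. All animals were hermaphrodites grown at 25 °C for 96 hours, to day 2 of dauer, and whole animals were fixed with formaldehyde and precipitated with antibodies against GFP. The tagged copy came from an extrachromosomal transgene, a kind that cells can lose and that often carries many copies, with the promoter of nhx-2, whose product exchanges sodium for protons in the intestine. The labels do not say that replicates were separate cultures, so a p-value here rests on a spread between libraries that may be technical.

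In these worms daf-2 encodes the insulin/IGF receptor, and its loss at high temperature sends larvae into dauer, an arrested stage that lives on stored energy. AMP-activated protein kinase (AMPK) senses falling cellular energy and slows the use of those stores, and aak-1 and aak-2 encode its catalytic subunits, which aak(0) animals lack. Both groups thus carry the daf-2 mutation, and daf-2 here names the group with AMPK. Values are reads per 1000000 protein-coding reads of a library (coding CPM), unless FPKM is named. FPKM, as the authors gave it, is scaled by transcript length and is not on the library scale of coding CPM. On log2(FPKM + 1) the median of aak(0) minus daf-2 over members was 0.37, against -0.09 in coding CPM. Levels in FPKM are therefore less comparable between the groups. Differences are aak(0) minus daf-2 on the log2(coding CPM + 1) scale, with the standard error (SE) of the limma fit, and they understate the change of low genes. No input RNA was used here, so a value holds both how much of a transcript the animals had and how well it was recovered.

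Far more genes were read in some libraries than in others. Protein-coding reads numbered 1250317, 3009917 and 3245356 in aak(0) replicates 1, 2 and 3, and 1629844, 1561821 and 2319975 in daf-2 replicates 1, 2 and 3. Members with 0 reads numbered 3808, 55 and 0 in aak(0), against 2570, 179 and 1967 in daf-2. Replicate 1 of aak(0) and replicates 1 and 3 of daf-2 are called the sparse libraries below. Their zeros were not confined to low genes, since aak(0) replicate 1 had 0 reads for 532 members that had over 100 reads in every other library with any. Just inside the rule, 3120 genes had reads in exactly 4 libraries, with a median level of 25.2 coding CPM, and just outside it 3673 genes had reads in 3, with a median of 7.25. The share of ribosomal RNA among gene reads was 78.9% to 80.5% in aak(0) and 76.3% to 89.8% in daf-2. Depending on the library, 3 reads amount to 0.924 to 2.40 coding CPM. Such floors and the intervals below cover counting error only, since reads counted without molecular identifiers can be copies of 1 molecule.

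**Figure D1:**
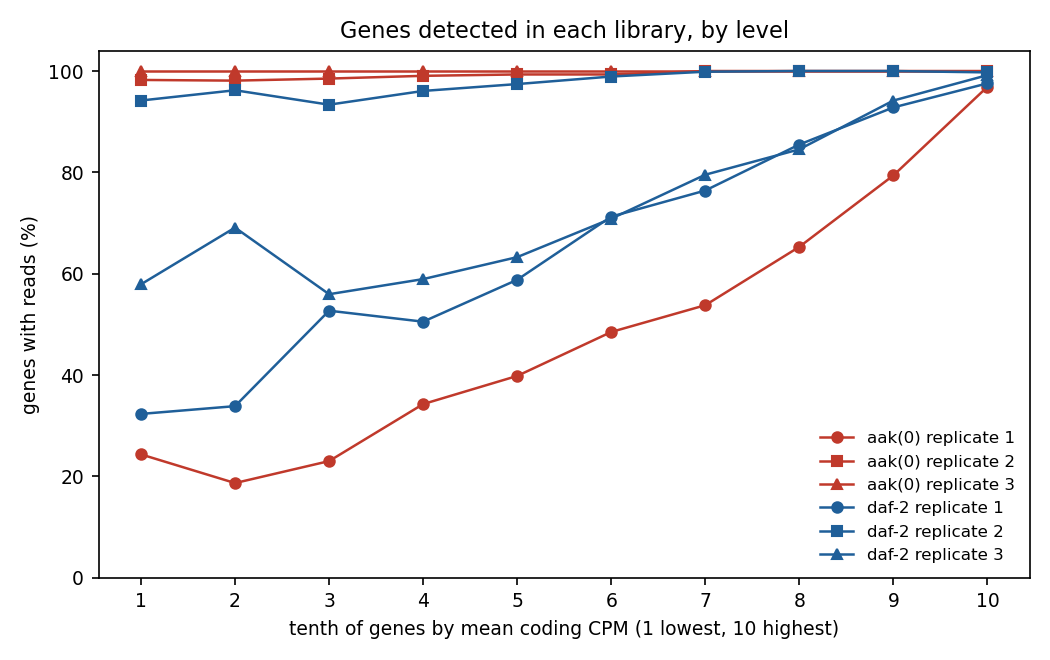
Share of members with at least 1 read (y axis, %) in each library, with members sorted by mean coding CPM into 10 classes of like size (x axis). In the lowest class aak(0) replicate 1 detected 24.4% and in the highest 96.9%, and both sparse daf-2 libraries also stayed below the other libraries over most of the range.

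The labels were checked against the genes they name. Transcripts of aak-2 had 122, 37.5 and 73.0 coding CPM in aak(0), against 173, 198 and 194 in daf-2. All 3 aak(0) libraries lay below all 3 daf-2 libraries, but the difference of -1.42 ± 1.11 (SE) did not pass the test. Transcripts of aak-1 had 0, 29.2 and 41.3 coding CPM in aak(0), against 0, 88.4 and 143 in daf-2. Both replicate 1 libraries were at 0. Reads of a deleted gene can come from exons that remain, so RNA is a weak check of a deletion. The hzl-1 gene itself, whose reads include those of the transgene, had 305, 540 and 504 coding CPM in aak(0), against 379, 668 and 459 in daf-2. Its groups overlapped, with a difference of -0.16 ± 0.63 (SE). GFP alone, whose label names no hzl-1 mutation, held 3.04 FPKM of it against 6.25 to 18.7 FPKM in aak(0) and 2.01 to 11.4 FPKM in daf-2.

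The tissue makeup of the recovered RNA was also examined, because the bait was intestinal while whole animals were lysed. Sums here take in every protein-coding gene of a list, members or not. Germline markers (43 listed, 38 members) reached 3828, 11610 and 11940 coding CPM in aak(0), against 13649, 4503 and 4329 in daf-2. Body wall muscle genes (32 listed, 29 members) summed to 16477, 5760 and 5719 coding CPM in aak(0), against 6739, 12466 and 13752 in daf-2. In both lists the split crossed the genotypes: aak(0) replicates 2 and 3 and daf-2 replicate 1 were high in germline and low in muscle RNA, and the other 3 libraries were the reverse. Synapse and neurotransmitter genes (17 listed, 15 members) followed muscle. They had 4924, 2015 and 1760 coding CPM in aak(0) and 2962, 4744 and 5192 in daf-2. Intestine markers (27 listed, 17 members) summed to 1864, 1664 and 1579 coding CPM in aak(0), against 2029.6, 2079 and 2135 in daf-2. Reads of the muscle, nerve and germline lists were thus found in every library beside those of the intestine. The germline sum is not purely of germline genes. In daf-2 replicate 3 gld-1 had 0.862 and pos-1 0 coding CPM, while cgh-1, also listed under mRNA decay, had 1111. In such bulk samples fewer cells of a type and less RNA per cell cannot be told apart.

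**Figure D2:**
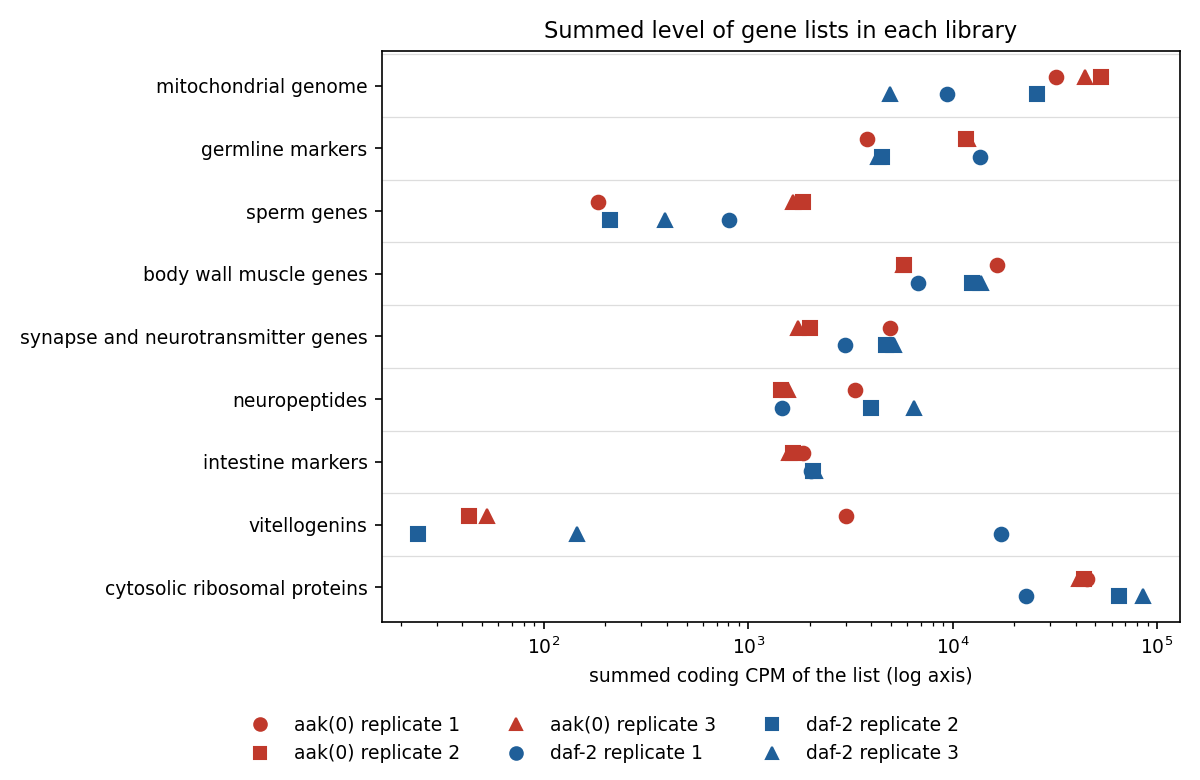
Summed coding CPM (x axis, log scale) of all protein-coding genes in 9 gene lists (y axis), members or not, in each library. The germline and muscle sums split each genotype, whereas the mitochondrial genome lies higher in all 3 aak(0) libraries than in all 3 of daf-2.

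Genotype did not order the libraries by likeness. Across members aak(0) replicates 2 and 3 correlated at Pearson r = 0.93, while aak(0) replicate 1 correlated with them at 0.42 and 0.43 (genes are not independent replicates). Replicate 3 of aak(0) correlated with daf-2 replicate 2 at 0.77, above the 0.13 between daf-2 replicates 1 and 3. The median SD of a member within a group was, on the log2 scale, 2.07 in aak(0) and 2.57 in daf-2. For the 1923 members with reads in all 6 libraries it was 0.62 in aak(0) and 0.82 in daf-2.

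Against this spread 6 members rose in aak(0) (0.0813% of 7382) and 0 fell (0%), by limma with a Benjamini-Hochberg adjusted p under 0.05. They were argk-1, hmit-1.1 and 4 genes of the mitochondrial genome, ctc-3, nduo-5, ctb-1 and ctc-1. At an unadjusted p under 0.05 there were 86 members higher (1.16%) and 67 lower (0.908%). On the recovered reads DESeq2 called argk-1 and hmit-1.1 (0.0271% of members), and edgeR called argk-1 (0.0135%). The median difference over all members was -0.09, with quartiles of -1.11 and 0.96.

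**Figure D3:**
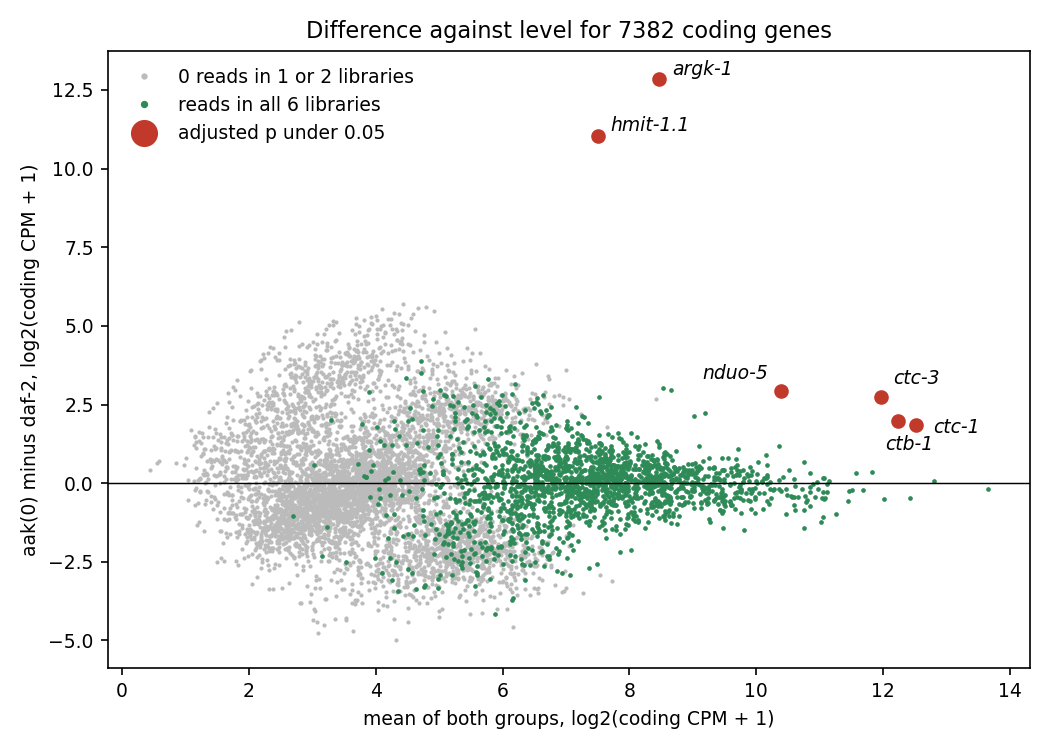
Difference of aak(0) minus daf-2 (y axis) against the mean of both groups (x axis), both on the log2(coding CPM + 1) scale, for each member. The 6 members that passed the test are marked in red, and argk-1 and hmit-1.1 stand at 12.85 and 11.05, above every other member.

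Transcripts of argk-1, which encodes an arginine kinase, rose in aak(0) by 12.85 ± 0.76 (SE) (limma adjusted p = 1.44e-23). Arginine kinases store high-energy phosphate on arginine and return it to ADP, as creatine kinase does in vertebrates. The gene (WBGene00009706) lies on chromosome V of WBcel235 at 16103894 to 16105950. It had 62151, 12986 and 35400 coding CPM in aak(0), against 3.07, 0 and 16.4 in daf-2. The lowest aak(0) library held 793 times the coding CPM of the highest daf-2 library. The transcript took 6.22%, 1.299% and 3.54% of all protein-coding reads of the aak(0) libraries. Summed over libraries there were 231681 reads in aak(0) and 43 in daf-2, of which 38 were in daf-2 replicate 3. The ratio of summed coding CPM was 3957 (95% exact interval 2937 to 5467, counting error only). GFP alone held 1.00 FPKM, against 3601, 905 and 2558 FPKM in aak(0) and 0.04, 0 and 0 FPKM in daf-2. The 38 reads of daf-2 replicate 3 thus stood at 0 FPKM.

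The gene's own spread over libraries was an SD of 1.67 on the log2 scale, and limma, drawing on other genes of that level, used 0.92. Its call did not hold in 4 of 21 alternatives, with limma adjusted p of 0.384 without the variance trend, 0.177 with a replicate block and 0.058 without both replicate 1 libraries. With voom and quality weights it was 0.983. The groups did not overlap, and the difference lay between 10.97 and 14.89 over all 21.

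Transcripts of hmit-1.1, which encodes a transporter of myo-inositol, an osmolyte, rose in aak(0) by 11.05 ± 1.02 (SE) (limma adjusted p = 2.20e-13). The gene (WBGene00013073) lies on chromosome V at 18516789 to 18523875. It had 3871, 13295 and 11354 coding CPM in aak(0), against 0, 0 and 60.8 in daf-2. All 141 reads of the daf-2 group came from daf-2 replicate 3, and aak(0) replicate 1 was the lowest of the aak(0) libraries. The ratio of summed coding CPM was 426 (95% exact interval 361 to 506, counting error only), and the lowest aak(0) library held 63.7 times the coding CPM of the highest daf-2 library. GFP alone held 0.35 FPKM, against 129, 523 and 473 FPKM in aak(0) and 0 FPKM in each daf-2 library. The 141 reads of daf-2 replicate 3 thus stood at 0 FPKM. The order of the aak(0) libraries differed from that of argk-1, which was highest in replicate 1. Its own SD was 2.52 against the 1.25 that limma used, and the call did not hold in 5 of 21 alternatives, the 4 named for argk-1 and edgeR (adjusted p = 0.0835).

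**Figure D4:**
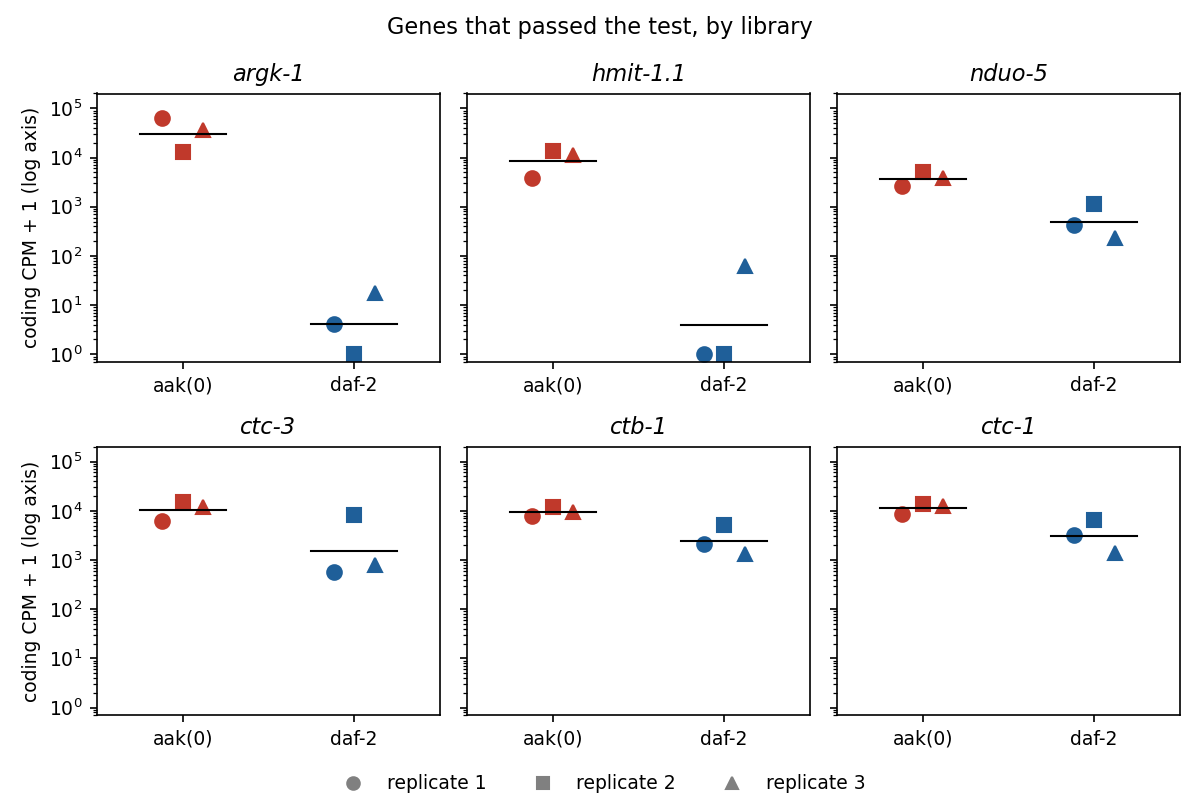
Coding CPM + 1 (y axis, log scale) of the 6 genes that passed the test, in the 3 aak(0) and the 3 daf-2 libraries, with a line at the mean of the log2 values. Points at 1 are libraries with 0 reads. For argk-1 and hmit-1.1 every aak(0) library lies far above every daf-2 library, while for ctc-3 daf-2 replicate 2 reaches into the aak(0) range.

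The nearest genes to both with the category protein-coding were read far less, and other categories were not searched. The nearest of these to argk-1 was cth-1, which encodes a cystathionine gamma-lyase and lies 1144 bases away. It had 0, 6 and 12 reads in aak(0) and none in the daf-2 libraries, too few to be a member. The nearest to hmit-1.1 was its paralog hmit-1.2, 885 bases away, with 183, 42 and 25 reads in aak(0) and 1, 22 and 109 in daf-2. Its groups overlapped, with a difference of 1.35 ± 2.79 (SE).

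The relatives of argk-1 did not pass the test. Of 5 genes listed as arginine kinases 3 were members, and argk-1 was the 1 that passed. The paralog F46H5.3 had 329, 220 and 235 coding CPM in aak(0), against 521, 394 and 378 in daf-2. Each aak(0) library was below each daf-2 library, by -0.73 ± 0.71 (SE), and the difference did not pass. The paralog ZC434.8 had 76.8, 176 and 98.9 coding CPM in aak(0), against 0, 44.2 and 10.8 in daf-2. Its groups did not overlap either, and its difference of 3.78 ± 2.21 (SE) did not pass, with daf-2 replicate 1, a sparse library, at 0. With GFP alone F46H5.3 and ZC434.8 each held 25.2 FPKM.

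Of the 9 members listed for inositol transport, synthesis of the osmolyte glycerol and the osmotic stress response, hmit-1.1 was likewise the 1 that passed. The glycerol-3-phosphate dehydrogenase gene gpdh-1, a known target of osmotic stress, had 0, 7.31 and 5.55 coding CPM in aak(0), against 2.45, 56.3 and 98.7 in daf-2. Its sister gpdh-2 had 67.2, 158 and 163 coding CPM in aak(0), against 3.68, 303 and 54.7 in daf-2. The groups overlapped for both, with differences of -2.83 ± 2.84 and 1.49 ± 1.44 (SE). For osm-11, whose loss activates the osmotic stress response, the values were 974, 648 and 526 coding CPM in aak(0) and 79.1, 1670 and 1645 in daf-2. Another regulator of that response, ptr-23, had 1346, 106 and 81.0 coding CPM in aak(0), against 16.6, 437 and 375 in daf-2. In both genes the sparse replicate 1 of daf-2 was lowest. The inositol-3-phosphate synthase gene inos-1, which makes inositol from glucose phosphate, had 55.2, 193 and 230.2 coding CPM in aak(0), against 204, 218 and 87.1 in daf-2. Its groups overlapped. It was not in the list, which held inso-1, a gene of similar name, in its place. For inso-1 the values were 0, 14.6 and 13.2 coding CPM in aak(0) and 113, 47.4 and 53.4 in daf-2, without overlap.

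The mitochondrial genome encodes 12 proteins for oxidative phosphorylation, and all 12 were members. Of these 4 rose and 0 fell, 12 of 12 differences lay above 0, and in 8 of 12 all aak(0) libraries lay above all daf-2 libraries. Over all members 3507 of 7382 differences lay above 0, and the last pattern held for 5.47%. The 12 genes belong to 1 genome and are not independent results. The median of the 12 differences was 2.06, which is 2.14 above the median of all members and between 2.12 and 2.37 above it under other scalings. That relative median was 0.90 without the 3 sparse libraries, and between 1.45 and 2.63 with any 1 library left out. Summed, they reached 32154, 53364 and 44482 coding CPM in aak(0), against 9371, 26013 and 4933 in daf-2. The daf-2 libraries thus differed among themselves by more than the aak(0) libraries did, and daf-2 replicate 2 was nearest to the aak(0) group.

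Among subunits of cytochrome c oxidase, the complex that passes electrons to oxygen, ctc-3 rose by 2.75 ± 0.43 (SE, limma adjusted p = 3.31e-05). It had 6288, 14838 and 11927 coding CPM in aak(0), against 570, 8228 and 774 in daf-2. Here the groups overlapped, since daf-2 replicate 2 exceeded aak(0) replicate 1. The subunit gene ctc-1 rose by 1.86 ± 0.33 (SE, adjusted p = 2.93e-04), at 8549, 13543 and 12211 coding CPM in aak(0) and 3243, 6540 and 1395 in daf-2. The subunit gene ctc-2 had 712, 1914 and 1507 coding CPM in aak(0), against 450, 459 and 95.7 in daf-2. Its groups did not overlap, but its difference of 2.23 ± 0.60 (SE) did not pass (adjusted p = 0.370).

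For ctb-1, the cytochrome b of complex III, levels were 7791, 11708 and 9573 coding CPM in aak(0), against 2091, 5156 and 1301 in daf-2. It rose by 1.99 ± 0.33 (SE, limma adjusted p = 1.13e-04). Among complex I subunits nduo-5 rose by 2.92 ± 0.46 (SE, limma adjusted p = 3.31e-05), at 2671, 5020 and 3776 coding CPM in aak(0) and 429, 1147 and 235 in daf-2. The complex I gene nduo-6 had 1952, 989 and 756 coding CPM in aak(0), against 281, 701 and 14.2 in daf-2. It did not pass (2.97 ± 0.76 (SE), adjusted p = 0.211). In nduo-1 the groups overlapped, at 1604, 2292 and 2076 coding CPM in aak(0) and 853, 2352 and 326 in daf-2. The ATP synthase gene atp-6 had 798, 1389 and 1140 coding CPM in aak(0), against 238, 464 and 136.2 in daf-2, with groups that did not overlap and a difference of 2.13 ± 0.61 (SE) that did not pass (adjusted p = 0.596).

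These transcripts were abundant with GFP alone too, at 1284 FPKM for ctc-1, 2075 for ctc-3, 1494 for ctb-1 and 218 for nduo-5. For comparison, ctc-1 had 693, 1098 and 1018 FPKM in aak(0) and 172, 267 and 80.7 FPKM in daf-2. The 4 calls held in 11 to 13 of 22 alternatives each, and without the sparse aak(0) replicate 1 the 2 genes called were argk-1 and hmit-1.1. Between the 3 libraries that were not sparse, the differences were 0.69 for ctc-3, 0.98 for ctc-1, 1.04 for ctb-1 and 1.92 for nduo-5. Nuclear genes of the respiratory chain and ATP synthase did not move with them: of 58 members 0 passed, 29 lay above 0 and 29 below, and the median difference was 0.0030. Among them atp-2, the beta subunit of the ATP synthase, had 2494, 1467 and 1499 coding CPM in aak(0), against 1553, 2236 and 2004 in daf-2 (-0.12 ± 0.40, SE).

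Beyond these 6 genes, 404 members (5.47%) had all aak(0) libraries above all daf-2 libraries and 342 (4.63%) had them all below. Among members with at least 10 reads in all 6 libraries the shares were 7.49% and 5.9% of 1576, and among the 1923 with reads in all 6 libraries 6.97% and 6.76%. Apart from the mitochondrial genes, the largest such differences upward included hcp-1, which encodes a centromere protein. It had 344, 318 and 327 coding CPM in aak(0), against 201, 82.6 and 13.4 in daf-2 (2.41 ± 1.03, SE). The RNA-dependent RNA polymerase gene ego-1, which makes small RNAs in the germline, had 178, 229 and 241 coding CPM in aak(0), against 30.1, 45.5 and 55.6 in daf-2 (2.31 ± 1.201, SE). In both genes the aak(0) libraries were close together, including the sparse one. The prohibitin gene phb-1, a scaffold of the inner mitochondrial membrane, had 270, 202 and 179 coding CPM in aak(0), against 20.9, 107 and 52.2 in daf-2. The kinesin heavy chain gene unc-116 had 343, 275 and 237 coding CPM in aak(0), against 24.5, 199 and 84.5 in daf-2. The others by that ranking were C06A5.3, bath-43, ZK973.1, K08E4.2, hat-1 (a histone acetyltransferase) and vps-39 (of the lysosomal tethering complex HOPS), between 1.91 and 2.55. None of these passed the test.

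Downward, the largest difference among members read at least 10 times in every library was that of lact-2, a gene with a beta-lactamase domain. It had 30.4, 26.2 and 25.3 coding CPM in aak(0), against 121, 517 and 206 in daf-2 (-3.06 ± 1.31, SE). The UDP-glucuronosyltransferase gene ugt-41, of a family that conjugates lipophilic compounds, had 33.6, 33.9 and 35.4 coding CPM in aak(0), against 227, 247 and 168 in daf-2 (-2.59 ± 1.26, SE). Both groups were tight for ugt-41, and its SE is that of other genes at its level. The casein kinase II catalytic gene kin-3 had 544, 530 and 531 coding CPM in aak(0), against 653, 1672 and 3095 in daf-2 (-1.49 ± 0.51, SE). In ZK1290.5 the values were 24.8, 23.3 and 29.9 coding CPM in aak(0) and 110, 132 and 134 in daf-2. The stress-responsive transcription factor gene atf-5 had 25.6, 69.1 and 74.0 coding CPM in aak(0), against 120, 124 and 424 in daf-2. Metabolic genes below in all aak(0) libraries were gln-3, a glutamine synthetase (21.6, 125.3 and 133 coding CPM in aak(0) against 144, 311 and 289 in daf-2) as well as aldo-1, an aldolase (22.4, 66.4 and 68.1 in aak(0) against 167, 138 and 131 in daf-2). The rest of that ranking, nssp-70, F38B7.2, tbc-7, ttbk-7, cdka-1, the chloride channel gene clh-1, D2030.2 and cup-14, lay between -2.49 and -1.45, and none passed.

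Larger differences were found among members with zeros in the sparse libraries. The egg surface gene egg-1, needed for fertilization, had 149, 146 and 167 coding CPM in aak(0), against 0, 25.6 and 0 in daf-2. The synaptonemal complex gene syp-1 had 158, 122.9 and 103 coding CPM in aak(0), against 0, 26.3 and 0 in daf-2. In both genes the sparse daf-2 replicates 1 and 3 held the zeros, as they did for prmt-9, ima-1, rol-8, T20F5.7, Y60C6A.3 and R10H10.7, whose differences lay between 5.38 and 5.60. Downward, jph-1, a junctophilin that ties cell membrane to endoplasmic reticulum in muscle, had 0, 55.2 and 55.8 coding CPM in aak(0), against 427, 240 and 422 in daf-2 (-4.58 ± 1.45, SE). The nuclear receptor gene nhr-116 had 0, 0 and 3.39 coding CPM in aak(0), against 66.9, 17.9 and 66.4 in daf-2 (-4.76 ± 2.68, SE). Neither passed, and aak(0) replicate 1 was at 0 in both.

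Apart from the called genes, the most abundant transcripts differed little between genotypes. The elongation factor gene eef-1A.1, which delivers tRNAs to the ribosome, had 13861, 11447 and 11180 coding CPM in aak(0), against 11976, 13411 and 16143 in daf-2. Its difference of -0.18 ± 0.24 (SE) was the most precise among the abundant genes named here. The chaperone gene hsp-90 had 4883, 4664 and 4489 coding CPM in aak(0), against 4928, 6247 and 9010 in daf-2 (-0.48 ± 0.30, SE). Each aak(0) library was below each daf-2 library, by a margin that is small beside the spread of the daf-2 group. In FPKM genes can be set against each other within a group, though some well-read members stood at 0 in the sparse libraries. Between groups the FPKM below are not on the scale of coding CPM, in which eef-1A.1 was not higher in aak(0). By that measure argk-1 averaged 2355 in aak(0), the highest mean of any member in the group. It was followed by ctc-3 at 1935, ctb-1 at 1169, eef-1A.1 at 1038 and ctc-1 at 936. In daf-2 the highest means were 726 FPKM for eef-1A.1, 412 for the ribosomal protein gene rps-8 and 299.9 for ctc-3. The gene hmit-1.1 ranked seventh in aak(0) by mean FPKM, at 375, between rps-8 at 461 and the elongation factor gene eef-2 at 345.8.

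With all 6 libraries, genes of protein synthesis had medians near that of all members. Of 73 cytosolic ribosomal protein genes 0 passed, 31 lay above 0 and 42 below, and the list's median difference was -0.10 beside -0.09 for all members. Relative to that of all members, this list's median was between -0.04 and 0.29 over the scalings, and -0.70 without the 3 sparse libraries. Sums over all 76 listed genes ran with the library more than with the genotype. They were 45720, 43977 and 41577 coding CPM in aak(0) and 22897, 64926 and 85964 in daf-2, where the sparse replicate 1 was lowest. For rps-8 the values were 2132, 1965 and 1731 coding CPM in aak(0), against 1107, 2260 and 5100 in daf-2. Translation factors (33 members, 0 passed, median -0.18) and mitochondrial ribosomal proteins (48, 0 passed, median -0.18) also lay near the median of all members with all libraries. So did splicing factors (43, 0 passed, median 0.05). Among 39 genes of mRNA decay and surveillance 0 passed, and cgh-1, a P-body helicase gene, had 302, 1286 and 1248 coding CPM in aak(0), against 782, 949 and 1111 in daf-2. The germline list, which holds cgh-1 itself, was also lowest of its group in aak(0) replicate 1. In daf-2 they differed, since replicate 1 was lowest for cgh-1 and highest for the germline sum.

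Among 11 members of the AMPK complex and its upstream kinase 0 passed, and the median was -0.04. Beside aak-2, the gamma subunit gene aakg-5 had all aak(0) libraries below, at 151, 210 and 213 coding CPM, against 239, 451 and 433 in daf-2. The gamma subunit gene aakg-1 overlapped, at 423, 250 and 274 coding CPM in aak(0) and 344, 257 and 103 in daf-2. Among 11 members of insulin signalling, downstream of daf-2, 0 passed and the median was 0.19. Transcripts of daf-16, the FOXO factor that daf-2 restrains, had 3661, 1555 and 1465 coding CPM in aak(0), against 951, 2420 and 3307 in daf-2. Its groups overlapped. The target of rapamycin complex 2 gene rict-1 had 330, 366 and 339 coding CPM in aak(0), against 216, 229 and 112 in daf-2. Its groups did not overlap, but its difference of 0.96 ± 0.80 (SE) did not pass. Of the dauer TGF-beta and steroid hormone genes 10 were members and 0 passed. The steroid receptor gene daf-12, which decides between dauer and growth, had 1398, 758 and 837 coding CPM in aak(0), against 306, 1680 and 2304 in daf-2.

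Lists of energy and fat metabolism had medians near that of all members. Of 44 members of glycolysis, the TCA and glyoxylate cycles and trehalose synthesis 0 passed, 23 lay above 0 and 21 below. The aldolase gene aldo-2 had 627, 668 and 538 coding CPM in aak(0), against 963, 966 and 1018 in daf-2 (-0.69 ± 0.52, SE). Its groups did not overlap and each was tight, though it did not pass. Of 59 members of fat storage, lipolysis and beta-oxidation 0 passed, with a median of -0.09, equal at this precision to that of all members. The desaturase gene fat-1 had 382, 324 and 345.7 coding CPM in aak(0), against 363, 356 and 490 in daf-2. The nuclear receptor gene nhr-49, a regulator of beta-oxidation, had 453, 246 and 215 coding CPM in aak(0), against 178, 186 and 48.3 in daf-2 (1.29 ± 0.91, SE). Chaperones (45 members), proteasome subunits (31), vacuolar ATPase and lysosomal proteases (33) and secretory genes (79) each had 0 members that passed and medians between 0.11 and 0.20. In the vacuolar ATPase, the proton pump of lysosomes, vha-8 had 531, 510 and 528 coding CPM in aak(0), against 232, 370 and 368 in daf-2 (0.72 ± 0.65, SE).

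In lists of tissue-restricted genes 0 members passed. The medians relative to that of all members were -0.03 for intestine markers and -0.22 for pharynx genes. They were -0.37 for synapse and neurotransmitter genes, -0.57 for body wall muscle genes and -0.80 for the 4 yolk protein genes. Neuropeptide genes (57 members) had 38 below 0 and a median of -0.85 relative to that of all members, with 5 members lower in all aak(0) libraries and 0 higher (4.63% and 5.47% over all members). Without daf-2 replicate 3 the relative median was -0.03, and without daf-2 replicate 1 it was -2.21. The most abundant by FPKM, flp-1, had 161, 74.1 and 78.6 coding CPM in aak(0), against 0, 304 and 690 in daf-2. Its groups overlapped through the sparse daf-2 replicate 1. The proprotein convertase gene egl-3, which processes neuropeptides, had 1624, 555 and 435.4 coding CPM in aak(0), against 607, 1853 and 2428 in daf-2. The low values were in aak(0) replicates 2 and 3 and daf-2 replicate 1, as for the synapse list. Muscle myosin unc-54 followed them at 6058, 702 and 702 coding CPM in aak(0) and 1158, 4089 and 2833 in daf-2.

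Germline markers had 25 of 38 members above 0 and a median 0.70 above that of all members. With 1 library left out that relative median lay between -0.49 (without daf-2 replicate 3) and 1.64 (without daf-2 replicate 1). The translational repressor gene gld-1 had 11.2, 1025 and 973.4 coding CPM in aak(0), against 376, 134 and 0.862 in daf-2. The eggshell gene cbd-1 had 386, 1670 and 1813 coding CPM in aak(0), against 1836, 224 and 4.31 in daf-2 (3.02 ± 0.90, SE, limma adjusted p = 0.757). In both genes the groups overlapped, and daf-2 replicate 3 was lowest. Sperm genes had 12 of 13 members above 0, with a median 0.90 above that of all members, and 0.05 above it without daf-2 replicate 1. Among them msp-45 had 0, 68.8 and 77.96 coding CPM in aak(0), against 2.45, 5.76 and 0 in daf-2. The members of that family have near-identical sequences, so its reads may be split among them. Yolk protein genes (4 members) followed replicate 1 instead: vit-2 had 1837, 6.98 and 8.32 coding CPM in aak(0), against 4580, 14.1 and 12.9 in daf-2. The part of germline, muscle and neuron content in the other differences was not tested.

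Detoxification genes of the cytochrome P450, GST and UGT families were lower in sum in every aak(0) library. All 186 listed genes, members or not, summed to 2580, 2443 and 2422 coding CPM in aak(0), against 2672, 4279 and 3633 in daf-2. Of the 57 members 38 lay below 0 and 0 passed, and their median was -0.46 relative to that of all members. Without daf-2 replicate 2 the relative median was 0.04. The member ugt-23 had 0, 57.1 and 81.3 coding CPM in aak(0), against 366, 193 and 276 in daf-2 (-4.003 ± 1.504, SE). As for ugt-41, its groups did not overlap. Nuclear hormone receptors (66 members) had 46 below 0, a median of -0.72 relative to that of all members and 0 that passed. Of these 66, 6 were higher in all aak(0) libraries and 3 lower (5.47% and 4.63% over all members). Without daf-2 replicate 3 the relative median of these receptors was -0.20. Among them nhr-88 had 424, 465 and 412 coding CPM in aak(0), against 402, 1916 and 2113 in daf-2 (-1.44 ± 0.56, SE), and the groups overlapped through daf-2 replicate 1. Cuticle collagens (39 members) had 27 above 0, with 8 higher and 1 lower in all aak(0) libraries (5.47% and 4.63% over all members). Their median lay 1.40 above that of all members, 0.42 above it in FPKM, 0.68 above it without aak(0) replicate 1 and 0.50 above it without the 3 sparse libraries. Of these 39, 2 had reads in all 6 libraries. The collagen gene col-43 had 284, 98.7 and 97.4 coding CPM in aak(0), against 0, 9.60 and 93.1 in daf-2.

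The differences were unevenly spread over chromosomes. Of 944 members on the X chromosome 2.01% had all aak(0) libraries above and 8.69% had them all below, against 5.47% and 4.63% of all members. Their median difference was -0.41, whereas the medians of the autosomes lay between -0.16 and 0.07. Of all protein-coding reads the X chromosome took 10.8%, 6.16% and 6.01% in aak(0), against 8.64%, 10.3% and 11.5% in daf-2. The 2 libraries with the lowest share, aak(0) replicates 2 and 3, were high in germline RNA, as was daf-2 replicate 1, which was the lowest of its group. In C. elegans the X chromosome is largely silent in germ cells. The part of germline content in the X chromosome's values was not tested.

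**Figure D5:**
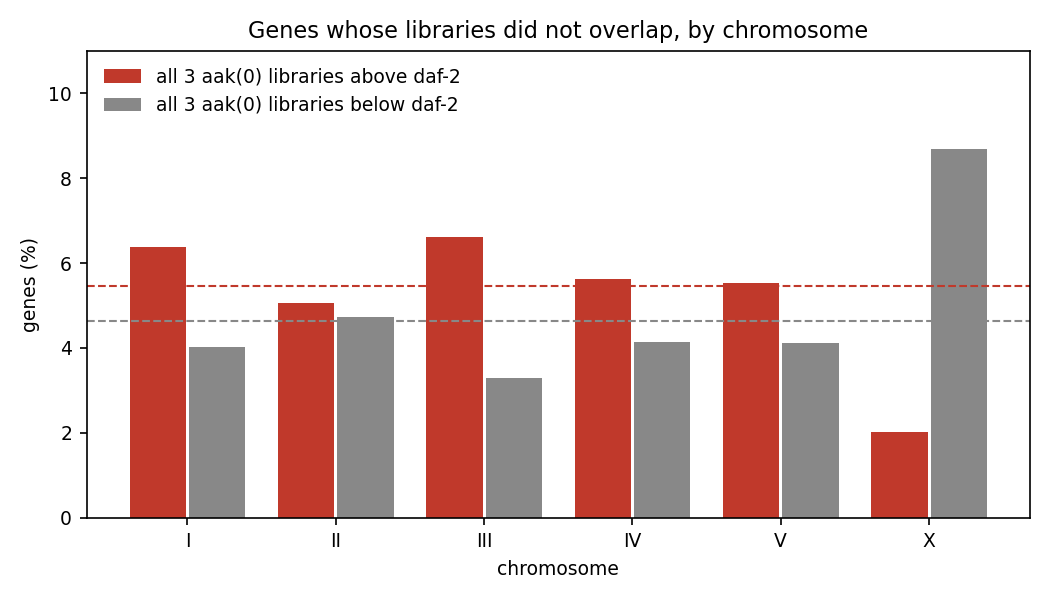
Share of members (y axis, %) on each nuclear chromosome (x axis) with all 3 aak(0) libraries above all 3 daf-2 libraries (red) or all below (grey). Dashed lines mark the shares over all members, 5.47% and 4.63%, and on X the grey bar stands at 8.69% beside a red bar at 2.01%.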

How the data were processed

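The authors deposited a signal per gene for the 6 HZL-1 libraries, found here to be whole reads divided by 1 factor per library (100% of values whole within 0.01), and FPKM for these and the GFP library. The build WBcel235, with DESeq2 1.30.1, RSEM, STAR 2.7.1a and Trimmomatic 0.35, is named in the submitters' processing notes, without settings or strand use. The recovered reads were scaled to coding CPM. limma 3.58.1 in R 4.3.3, with a variance trend, was fitted to log2(coding CPM + 1) of all 7957 genes with reads in at least 4 libraries, and Benjamini-Hochberg adjusted p-values under 0.05 were called. edgeR 4.0.16 and DESeq2 1.42.0 were alternatives. The fit had 4 residual degrees of freedom and drew 71.0 further ones from other genes. It was also run on simulated counts with the same dispersion for every gene and no sparse libraries. That run cannot tell how the fit behaves with the zeros of these libraries.

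The members, the 34 gene lists and the rule for naming genes were chosen with earlier results of these data known. Named were the genes the labels turn on, called members, those with groups that did not overlap by largest difference (at least 10 reads in all libraries, or at least 50 coding CPM in the higher group), the highest by mean FPKM, and each list's called members and 4 highest. Further genes, cth-1, hmit-1.2, gpdh-1, gpdh-2, inso-1 and inos-1, were chosen after their values were seen. Of 46904 symbols, 1117 sequence names and 11 names turned into dates were replaced through RefSeq. Genes whose category joins protein-coding and ncRNA (274 with reads in at least 4 libraries, daf-2 among them) were left out. Libraries with the same replicate number gave no sign of pairing over members (correlations of deviations -0.14, -0.10 and -0.08). These correlations cannot exclude an effect shared by some genes, such as vit-2, which was high in both replicate 1 libraries. No sequences were used here.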

Additional observations from a re-analysis of the deposited data

How the results depend on the processing

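The median difference over all members was -0.09, and it lay between -0.59 and 0.71 over the alternatives, so its sign depends on the setting. The 6 members called higher became 3 with quantile normalization, 2 with DESeq2 or with FPKM, and 1 with edgeR. They became 0 without the variance trend, with voom and quality weights, without both replicate 1 libraries, with the replicate block, and with genes read in all 6 libraries (which leaves out argk-1 and hmit-1.1 by construction). With single libraries left out, 2 to 7 members were called higher and 0 to 7 lower, the 7 lower without daf-2 replicate 1. Members called lower numbered 2, brp-1 and pqn-59, without a filter and with voom. Of these pqn-59 had 1833, 1190 and 1121 coding CPM in aak(0), against 1945, 3190 and 5291 in daf-2. Its groups did not overlap, and its difference of -1.25 ± 0.39 (SE) did not pass in the main fit. Whether the replicate numbers shared by the groups mark pairs is not known, so the block result (0 calls) stands as a limit on the 6 calls. Leaving out the 3 sparse libraries, an alternative chosen after seeing the data, gave 1682 members called higher (22.8%) and 1147 lower (15.5%). That fit compares 2 libraries with 1, takes its spread from a pair that correlated at 0.93, and sets germline-rich against muscle-rich libraries. Of 83 genes named in the text with a value there, 9 changed sign in it, and 7 of these passed its threshold: eef-2 at -0.47, osm-11 at -1.51, ptr-23 at -2.23, daf-16 at -0.68, flp-1 at -1.98, cgh-1 at 0.42 and gpdh-2 at -0.92. The others were nduo-1 at -0.11 and hmit-1.2 at -0.40. The median over all members turned to 0.09, and medians of some lists changed sign relative to it, that of the inositol and glycerol list for example being -1.60 there against 0.52 with all libraries. For these the cause was not tested. All 6 called members kept a difference above 0 in every alternative run. Zeros of the sparse libraries limit every difference of a gene read in fewer than 6 libraries.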
